A study of Arabidopsis thaliana with 31 samples.

Results

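QQS (Qua-Quine Starch, AT3G30720) is a small protein-coding gene of Arabidopsis thaliana, and its transcript was followed through all 31 RNA sequencing libraries of a study of histone acetylation and H2A.Z. It is 1 gene of the 32833 listed. It was chosen from its own values, because they were low in gcn5-7 arp6-1. The values of QQS in the set of libraries that holds this genotype are therefore given as a description with no test. All seedlings were harvested whole, 12 days after germination, from soil under long days. The labels mark each library A or B, and each letter has a table of its own. Set A holds the gcn5-7 arp6-1 double mutant (n = 3), arp6-1 (n = 3), gcn5-7 (n = 3) and the wild type Columbia-0, written Col-0 (n = 2). Set B holds the gcn5-7 nrp1-1 nrp2-2 triple mutant, the nrp1-1 nrp2-2 double mutant, gcn5-7 and Col-0 (n = 5 each). The labels give alleles and no transgene or treatment. Whether replicates came from separate cultures is not stated, and the p-values therefore cover the spread between these libraries only.

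QQS is an orphan gene, with no recognisable homologue outside Arabidopsis thaliana. Plants with less QQS are known to hold more leaf starch, and plants that overexpress it hold less starch and more protein. Its protein binds NF-YC4, a subunit of the NF-Y transcription factor. The gene is also known as an epiallele: cytosine methylation near its start differs between plants and accessions, and QQS is released from silencing in mutants of the DNA methylation machinery. The mutated genes act on chromatin: GCN5 acetylates histones, ARP6 belongs to the SWR1 complex, which exchanges H2A for the variant H2A.Z, and the NRP proteins are histone chaperones. Cytosine methylation, histone marks and starch were not measured in these libraries.

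In RefSeq's annotation of TAIR10.1 the gene lies on the plus strand at chr3:12349047-12349933, with 3 transcripts and 687 bases of exon. The authors' tables hold no coordinates, and the submitters' processing notes name TAIR10. The coding sequence of 180 bases is spliced from 2 exon parts, chr3:12349461-12349478 and chr3:12349565-12349726, and encodes 59 amino acids. It is shown because its shortness bears on the measurement described below, with the start and stop codons in capitals. The 250 bases before the annotated start, chr3:12348797-12349046, are shown because this is where methylation of the gene is known to vary, with each CG dinucleotide in capitals.
QQS coding sequence: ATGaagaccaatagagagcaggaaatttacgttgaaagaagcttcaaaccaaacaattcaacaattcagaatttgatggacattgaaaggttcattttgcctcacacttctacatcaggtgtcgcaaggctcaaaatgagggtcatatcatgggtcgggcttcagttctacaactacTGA
QQS promoter: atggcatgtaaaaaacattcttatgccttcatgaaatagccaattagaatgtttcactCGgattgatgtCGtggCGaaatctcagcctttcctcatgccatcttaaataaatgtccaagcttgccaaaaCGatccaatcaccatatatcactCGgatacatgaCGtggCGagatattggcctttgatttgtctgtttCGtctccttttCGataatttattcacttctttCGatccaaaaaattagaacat

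This window held 10 CG dinucleotides, which read the same on both strands. The median over 27431 protein-coding promoters of the same length was 5, and 12.5% held at least as many. Its GC content was 37.6%, against a median of 31.2%. The window also carries a short duplication: TCACTCGGAT occurs 2 times with starts 94 bases apart, and so does CGTGGCGA, also 94 bases apart. An exact repeat of 10 or more bases within the window, other than one made of only 1 or 2 kinds of base, was present in 24.5% of the promoters. These counts describe letters and not methylation.

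The values are TPM scaled by TMM, a level per length and per library. They were made from whole reads, so read numbers could be recovered: from 38.3 M to 39.6 M in the libraries of A and from 10.4 M to 16.8 M in those of B. QQS rested on 12 to 461 reads in A and 13 to 64 reads in B. The labels were checked on the mutated genes. ARP6 stood at 0.514 ± 0.244 in gcn5-7 arp6-1 and 0.214 ± 0.133 in arp6-1, against 27.2 ± 12.6 in Col-0 of A. NRP2 was listed at 0 in all 5 libraries of the triple mutant and averaged 0.208 ± 0.195 in nrp1-1 nrp2-2, against 11.8 ± 2.37 in Col-0 of B, while GCN5 transcript was present in every gcn5-7 library and does not check that allele. NRP1 transcript remained at 11.3 ± 1.37 in the triple mutant and 6.91 ± 2.01 in nrp1-1 nrp2-2, against 27.8 ± 4.68 in Col-0 of B. In A, replicate 1 of arp6-1, gcn5-7 and Col-0 stood apart from most other libraries. In B, replicates 1 and 2 of each genotype held a larger share of chloroplast transcripts than replicates 3 to 5, with at most 0.669% in any library. The green tissue genes RBCS1A and LHCB1.3 were high in all groups, the root hair genes EXPA7 and COBL9 were at 0.155 or below, and the 4 seed storage genes examined were at 0.465 or below in every library.

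In set A, QQS was low in both genotypes that carry arp6-1. It had 0.546, 0.539 and 1.28 TMM-scaled TPM in gcn5-7 arp6-1, from 13, 12 and 30 reads. It had 3.28, 2.14 and 1.05 in arp6-1, 23.0, 11.9 and 15.3 in gcn5-7, and 35.8 and 10.8 in Col-0. The arp6-1 and gcn5-7 arp6-1 libraries all lay below every gcn5-7 and Col-0 library. The highest arp6-1 library was at 3.28 and the lowest Col-0 library at 10.8.

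Means were 0.788 ± 0.426 in gcn5-7 arp6-1, 2.16 ± 1.12 in arp6-1, 16.7 ± 5.71 in gcn5-7 (SD, n = 3 each) and 23.3 ± 17.7 in Col-0 (SD, n = 2). The mean in gcn5-7 arp6-1 was thus 0.0339 of that in Col-0, and the mean in arp6-1 was 0.0928 of it. Neighbours in this order overlapped at both ends: gcn5-7 arp6-1 with arp6-1, and gcn5-7 with Col-0. In whole seedlings, fewer cells that express a gene and less RNA per cell cannot be told apart.

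**Figure D1:**
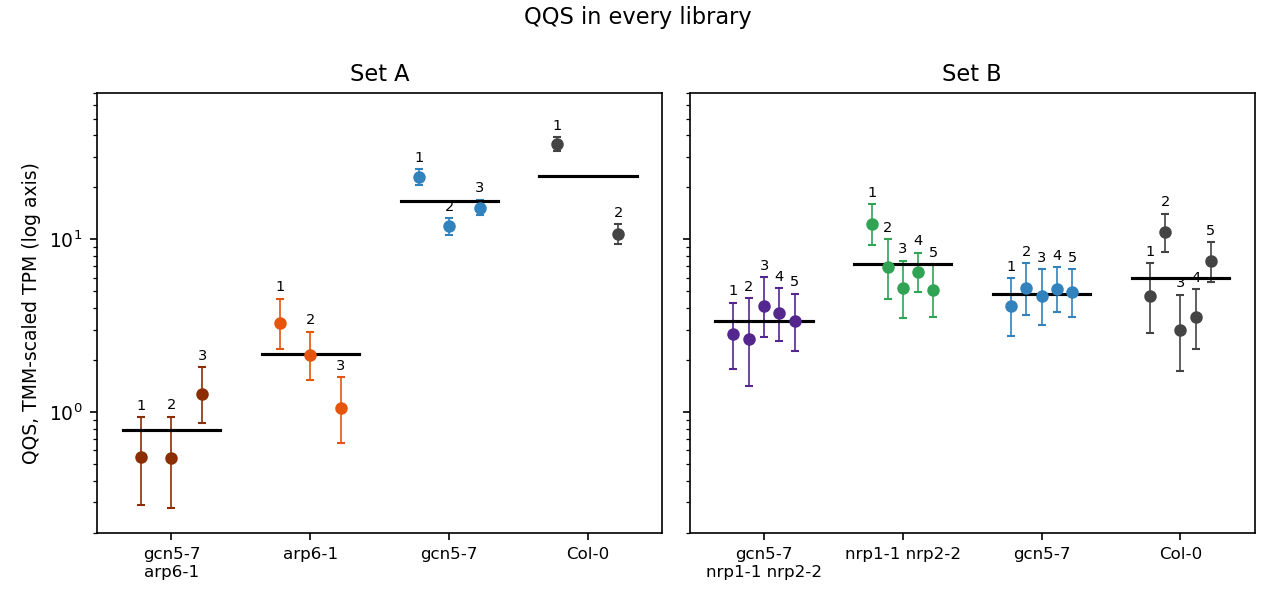
QQS level in each library on a log axis of TMM-scaled TPM, by genotype, with set A on the left and set B on the right. Points are libraries with their replicate number, thin bars are 95% Poisson intervals of the recovered reads (counting error only), and thick lines are group means; in A the 6 libraries that carry arp6-1 lie at 3.28 or below and the other 5 at 10.8 or above.

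On the log2(value + 1) scale the difference from Col-0 was -3.57 ± 0.53 (SE) in gcn5-7 arp6-1, which ranked 18 from the lowest of 18322 genes in that comparison. It was -2.78 ± 0.53 in arp6-1, ranked 9 from the lowest of the same genes, and -0.28 ± 0.53 in gcn5-7. Between the mutants, gcn5-7 arp6-1 differed from gcn5-7 by -3.29 ± 0.48 and from arp6-1 by -0.78 ± 0.48. The 2 Col-0 libraries weigh on these values. Without Col-0 replicate 1 the differences from Col-0 were -2.74, -1.96 and 0.55 in gcn5-7 arp6-1, arp6-1 and gcn5-7, and without Col-0 replicate 2 they were -4.39, -3.61 and -1.10.

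Among replicate 1 libraries, which stood apart, QQS was at 3.28 in arp6-1 and 23.0 in gcn5-7, against 35.8 in Col-0. Among the remaining libraries it was at 0.539 to 1.28 in gcn5-7 arp6-1, 1.05 and 2.14 in arp6-1, and 11.9 and 15.3 in gcn5-7, against 10.8 in Col-0. The low values of arp6-1 thus appeared within both kinds of library, while gcn5-7 was below Col-0 in the replicate 1 libraries and above it in the others. With a term for the replicate 1 libraries in the fit, the difference from Col-0 was -3.07 in gcn5-7 arp6-1, -2.62 in arp6-1 and -0.11 in gcn5-7.

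Gene length moved with these values. In each library the deviation of genes from their own mean followed exon length to a differing degree. The rank correlation across genes was 0.64 to 0.66 in gcn5-7 arp6-1, -0.60 to -0.10 in arp6-1 and -0.57 to 0.37 in gcn5-7, and it was -0.63 and 0.56 in the 2 Col-0 libraries. A positive value means that short genes such as QQS read low in that library. QQS, with 687 bases of exon, is shorter than the median tested gene of B at 1697 bases.

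Removing this trend brought the Col-0 libraries together, at 4.04 and 4.12 on the log2 scale, where they had stood at 5.20 and 3.56. The corrected means were 1.61 ± 0.34 in gcn5-7 arp6-1, 1.07 ± 0.34 in arp6-1, 4.03 ± 0.36 in gcn5-7 and 4.08 ± 0.06 in Col-0. QQS in gcn5-7 arp6-1 then differed from Col-0 by -2.47 ± 0.31 and from gcn5-7 by -2.42 ± 0.28, and QQS in arp6-1 differed from Col-0 by -3.01 ± 0.31. The difference between gcn5-7 and Col-0 was -0.05 ± 0.31. That between gcn5-7 arp6-1 and arp6-1 changed sign, to 0.54 ± 0.28, so which of the genotypes with arp6-1 was lower depended on this correction.

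**Figure D2:**
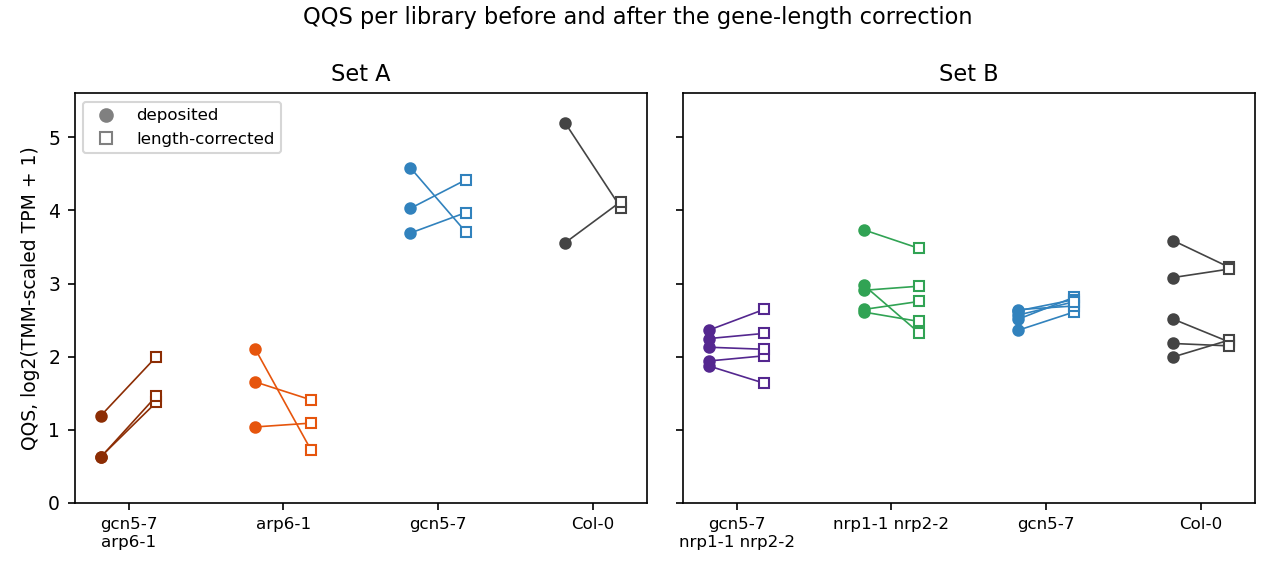
QQS in each library as log2(TMM-scaled TPM + 1), deposited (filled circles) and after the gene-length correction (open squares), joined by a line, for set A on the left and set B on the right. In A the 2 Col-0 libraries, at 5.20 and 3.56 as deposited, meet at 4.04 and 4.12, and the 3 gcn5-7 arp6-1 libraries move up to 1.38, 1.46 and 2.00.

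Set B was not used to choose the gene and allowed tests. The question there is how QQS stands when gcn5-7 is combined with loss of the NRP chaperones. QQS had 2.84, 2.66, 4.14, 3.75 and 3.37 TMM-scaled TPM in the triple mutant. It had 12.3, 6.90, 5.25, 6.50 and 5.11 in nrp1-1 nrp2-2, and 4.14, 5.25, 4.71, 5.18 and 4.94 in gcn5-7. In Col-0 it had 4.71, 11.03, 2.99, 3.53 and 7.47. Every triple-mutant library lay below every nrp1-1 nrp2-2 library, while Col-0 spanned the range of gcn5-7 and overlapped all 3 mutants.

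Means were 3.35 ± 0.616 in the triple mutant, 7.22 ± 2.96 in nrp1-1 nrp2-2, 4.84 ± 0.447 in gcn5-7 and 5.94 ± 3.33 in Col-0 (SD, n = 5 each). From the lowest, the order of means was the triple mutant, gcn5-7, Col-0 and nrp1-1 nrp2-2, and each group overlapped its neighbour. The triple mutant and gcn5-7 overlapped only through 1 library each, at 4.139 and 4.137. Over all 19507 genes tested, limma with Benjamini-Hochberg adjustment called QQS in 0 of the 6 comparisons. An unadjusted p below 0.05 was reached by the triple mutant against Col-0 and against nrp1-1 nrp2-2, where 12.2% and 12.1% of all genes reached it.

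No difference from Col-0 was called. The log2 fold change was -0.56 ± 0.26 in the triple mutant (95% interval -1.11 to -0.01, adjusted p = 0.397). It was 0.30 ± 0.26 in nrp1-1 nrp2-2 (-0.25 to 0.86, adjusted p = 0.983). It was -0.13 ± 0.26 in gcn5-7 (-0.68 to 0.42, adjusted p = 0.741). The same test called 2.43% of genes in the triple mutant, 0.39% in nrp1-1 nrp2-2 and 26.2% in gcn5-7. Without Col-0 replicate 2 the value of gcn5-7 turned to 0.10, and after the gene-length correction to 0.13.

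Against its parents, the triple mutant stood at -0.87 ± 0.26 relative to nrp1-1 nrp2-2 (-1.42 to -0.31, adjusted p = 0.178) and at -0.43 ± 0.26 relative to gcn5-7 (-0.98 to 0.12, adjusted p = 0.344). These comparisons called 0.713% and 3.21% of all genes. The interaction, which asks whether the triple mutant departs from the sum of the changes in its parents, was -0.74 ± 0.37 (-1.52 to 0.04, adjusted p = 0.72), where 0.041% of genes were called. Without replicates 1 and 2 of every genotype, which held more chloroplast transcripts, the triple mutant stood at -0.48 relative to nrp1-1 nrp2-2, -0.32 relative to gcn5-7 and -0.17 relative to Col-0. For QQS taken alone, a two-sided exact permutation test gave p = 0.00794 against nrp1-1 nrp2-2, the smallest that 5 against 5 allows, and p = 0.0159 against gcn5-7. Adjusted over the 5 pairs compared in this way, both were 0.0397, and the adjusted exact p against Col-0 was 0.185 in the triple mutant, 0.536 in nrp1-1 nrp2-2 and 0.683 in gcn5-7. After the gene-length correction the difference was -0.59 relative to gcn5-7, with an unadjusted exact p still at 0.0159, and -0.66 relative to nrp1-1 nrp2-2, with an unadjusted exact p of 0.0317. Both adjusted exact p-values were then 0.0794, so neither was called.

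**Figure D3:**
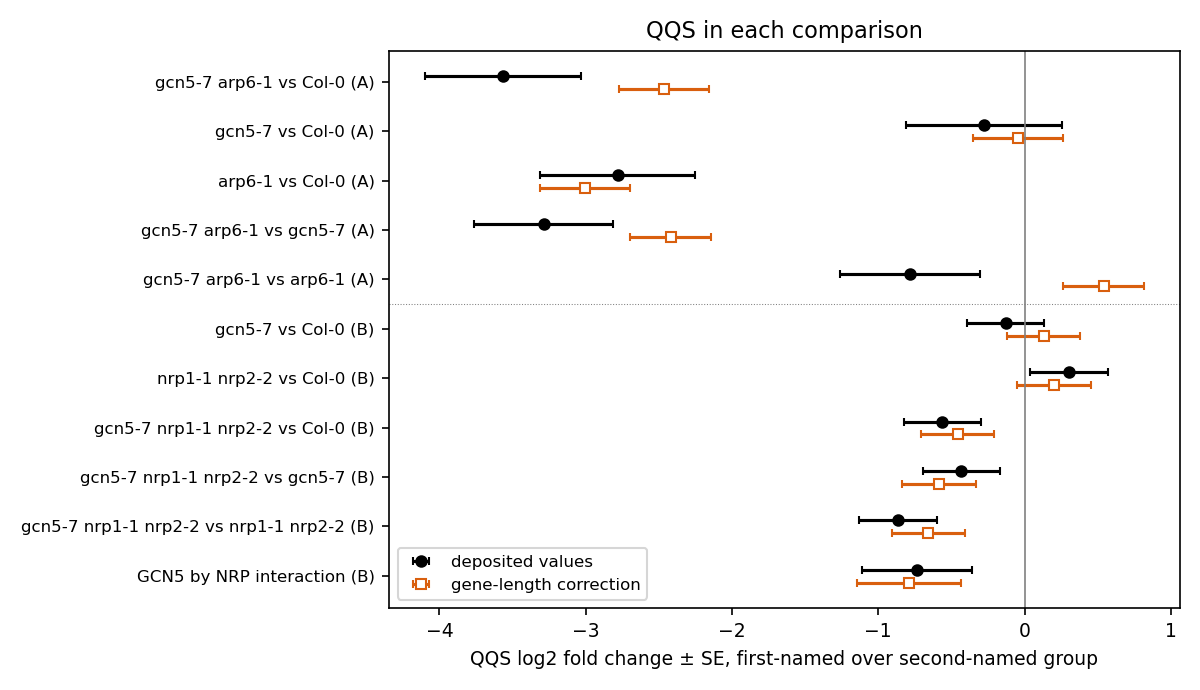
QQS log2 fold change ± SE for the 5 comparisons of set A (above the dotted line) and the 6 of set B (below it), from the deposited values (filled circles) and after the gene-length correction (open squares). The comparisons of gcn5-7 arp6-1 and arp6-1 with Col-0 and of gcn5-7 arp6-1 with gcn5-7 lie at -2.42 or lower on either scale, and the 6 of B lie between -0.87 and 0.30.

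The genotypes shared by both sets did not stand at the same level. gcn5-7 averaged 16.7 in A and 4.84 in B, and Col-0 averaged 23.3 in A and 5.94 in B. The lowest Col-0 library of A, at 10.8, was just below the highest of B, at 11.03. The tables were scaled separately, and set and library depth cannot be told apart here, so this difference was not tested.

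Replicate spread is of interest for a gene known as an epiallele. Within genotypes, the SD of QQS on the log2 scale was 0.603 in A, where the median gene had 0.574 and 54.0% of genes had less. In B it was 0.417, where the median gene had 0.427 and 48.0% had less. QQS thus varied between libraries of 1 genotype about as much as a typical gene. After the gene-length correction 32.1% of genes in A and 57.7% in B had a smaller SD.

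The spread differed among the genotypes of B. The coefficient of variation was 18.4% in the triple mutant, 41.0% in nrp1-1 nrp2-2 and 9.24% in gcn5-7, against 56.0% in Col-0. Set against counting error alone, which gives a variance ratio of 1, the reads of QQS varied 0.712 times as much as counting allows in the triple mutant, 6.14 times in nrp1-1 nrp2-2 and 0.291 times in gcn5-7, against 11.3 times in Col-0. In A this ratio was 5.34 in gcn5-7 arp6-1, 9.64 in arp6-1 and 38.5 in gcn5-7, against 255 in Col-0. The ratio grows with read number, so the ratios of A and B are not comparable. The size of the spreads also depended on gene length, while their order among the genotypes of B did not. On the log2 scale the SD in B was 0.20 in the triple mutant, 0.45 in nrp1-1 nrp2-2 and 0.11 in gcn5-7, against 0.66 in Col-0, and after the gene-length correction it was 0.38, 0.45 and 0.08, against 0.56. In Col-0 of A it was 1.16 before the correction and 0.06 after it. These ratios are descriptions of few libraries and were not tested against each other.

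**Figure D4:**
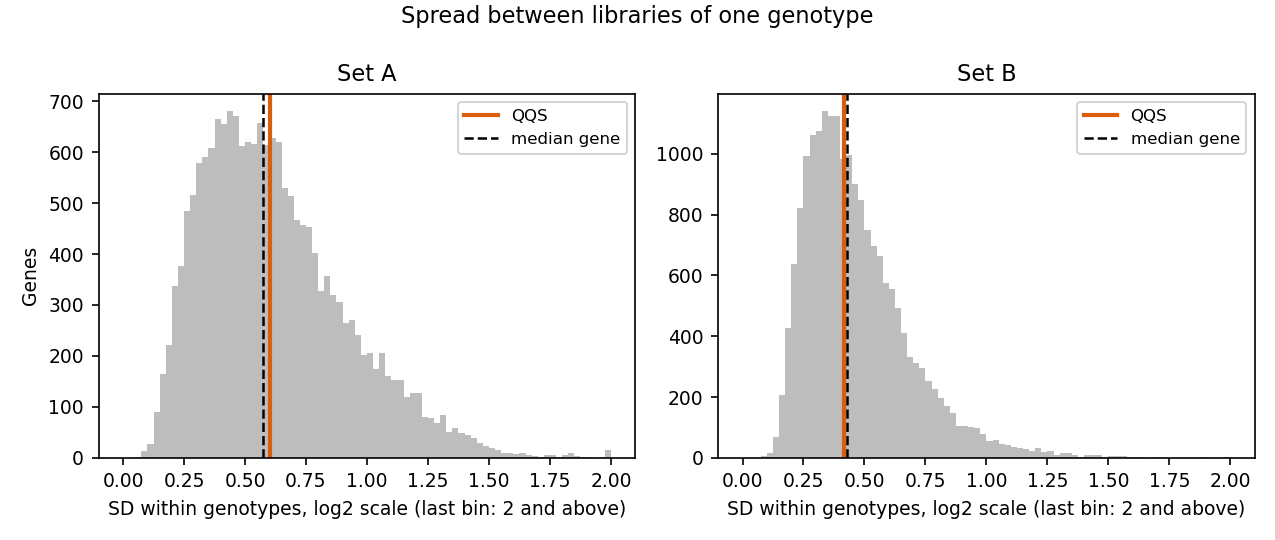
Number of genes by their pooled SD within genotypes on the log2(value + 1) scale, for 18322 genes of set A and 19507 of set B. The orange line marks QQS, at 0.603 in A and 0.417 in B, close to the dashed line of the median gene at 0.574 and 0.427.

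QQS lies among pseudogenes. Within 100 kb, RefSeq lists 46 other genes, of which 39 are pseudogenes and 5 are protein coding, and 7 of the 46 have a row in the tables. Of these, 3 were listed at 0 in every library of both sets, and only GDU6 and AT3G30730 reached the mean of 1 required for a test, in A alone. GDU6, a member of the GLUTAMINE DUMPER family, lies 3.26 kb from QQS on the same strand, measured between gene midpoints. AT3G30730, an uncharacterised protein, lies 8.21 kb away on the other strand.

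The genotype means of the neighbours did not fall in the order of those of QQS. GDU6 averaged 0.906 ± 0.432 in gcn5-7 arp6-1 and 2.102 ± 0.907 in arp6-1. It averaged 1.65 ± 0.923 in gcn5-7, against 2.41 ± 2.77 in Col-0 of A. Its gcn5-7 arp6-1 libraries, at 0.549 to 1.386, lay below its arp6-1 libraries, at 1.521 to 3.147. Every other pair of its groups overlapped. AT3G30730 averaged 2.94 ± 1.21 in gcn5-7 arp6-1, 4.25 ± 2.18 in arp6-1 and 0.424 ± 0.289 in gcn5-7, against 2.62 ± 2.64 in Col-0. Against Col-0 the log2 fold change of GDU6 was -0.57 (adjusted p = 0.444) in gcn5-7 arp6-1 and 0.12 (adjusted p = 1.00) in arp6-1 by limma. Both turned once gene length was corrected, to 0.54 and -0.10. That of AT3G30730 was 0.30 (adjusted p = 0.686) in gcn5-7 arp6-1 and 0.68 (adjusted p = 1.00) in arp6-1, and 1.34 and 0.46 after the correction. AT3G30730 stood 1.44 higher in gcn5-7 arp6-1 than in gcn5-7 (adjusted p = 0.0573, and 0.0198 once gene length was corrected, in a comparison that called 13.7% of all genes). In B, GDU6 had 4 reads in all 20 libraries together and was listed at 0 in 16 of them, against 266 reads in the 11 libraries of A.

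**Figure D5:**
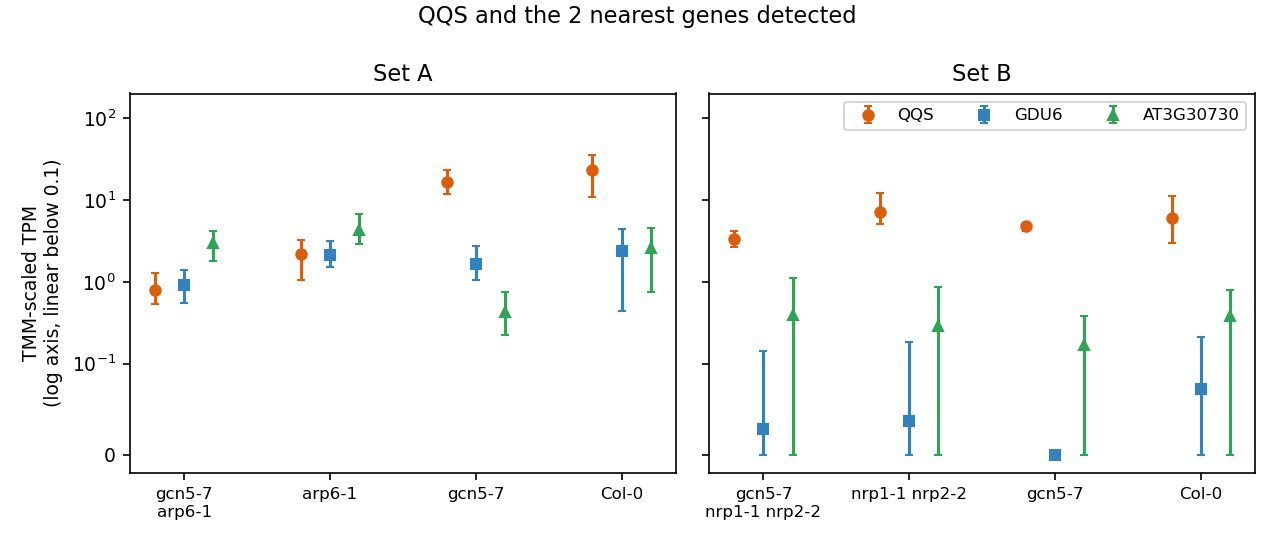
Mean level of QQS, GDU6 and AT3G30730 in each genotype of set A (left) and set B (right), in TMM-scaled TPM on an axis that is logarithmic above 0.1 and linear below it; bars run from the lowest to the highest library. In A, QQS is at 0.788 in gcn5-7 arp6-1 and 23.3 in Col-0, while GDU6 is at 0.906 and 2.41.

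The genes most like QQS were sought among 17450 genes tested in both sets, by the lesser of their Pearson correlations with QQS over the 11 libraries of A and the 20 of B. The highest were AT4G39560 (r = 0.71 in A and 0.63 in B), a kelch repeat protein, AT3G01295 (0.62 and 0.64), AT1G62510 (0.80 and 0.56), a lipid-transfer-like protein, PDF1.3 (0.56 and 0.58), a plant defensin, and AT2G35810 (0.68 and 0.54), annotated as a ureidoglycolate hydrolase. The median of this lesser correlation over all genes was -0.30. The libraries share depth and gene-length trends as well as genotype, and 4 of these 5 genes have 1050 bases of exon or fewer. The most opposite genes were ZIP4 (AT1G56590; -0.58 and -0.56), a clathrin adaptor subunit, AT2G13690 (-0.65 and -0.55), GSTT2 (-0.55 and -0.55), a glutathione transferase, AT2G35555 (-0.59 and -0.54) and AT1G23460 (-0.63 and -0.54). Of these, 4 have exons of 1709 bases or more, and after the gene-length correction their correlations lay between -0.12 and -0.34. Those of AT2G35555 were then -0.67 and -0.56, although within genotypes of A, before the correction, it correlated with QQS at 0.76.

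These genes did not follow QQS in every genotype. AT1G62510 averaged 1.12 ± 0.834 in gcn5-7 arp6-1, 1.66 ± 0.563 in arp6-1 and 3.10 ± 1.40 in gcn5-7, against 8.28 ± 9.08 in Col-0 of A, where its libraries stood at 1.86 and 14.7. PDF1.3 averaged 6.39 ± 2.09 in gcn5-7 arp6-1 and 143 ± 191 in arp6-1, where QQS was low, against 222 ± 185 in Col-0. After the gene-length correction the 5 most alike were AT3G01295 (0.48 and 0.50), NF-YA9 (0.49 and 0.48), GCN5 itself (listed as HAG1; 0.46 and 0.45), AT2G35810 (0.52 and 0.44) and AT5G00750 (0.55 and 0.43). NF-YA9 encodes a subunit of the NF-Y factor. GCN5 is a mutated gene of the design. Within genotypes, before the correction, GCN5 correlated with QQS at 0.08 in A and -0.001 in B.

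NF-YC4, the known partner of the QQS protein, is given beside it. It averaged 13.1 ± 2.11 in gcn5-7 arp6-1, 32.7 ± 36.0 in arp6-1 and 19.8 ± 17.7 in gcn5-7, against 18.5 ± 12.2 in Col-0 of A. In B it averaged 14.6 ± 6.08 in the triple mutant, 18.5 ± 15.6 in nrp1-1 nrp2-2 and 16.5 ± 7.07 in gcn5-7, against 19.3 ± 10.4 in Col-0. It was called by limma in no comparison with Col-0 (adjusted p = 0.754 or higher, and 0.775 or higher once gene length was corrected). A single replicate carried much of its spread: replicate 1 was highest in every group of A, at 74.2 in arp6-1, and replicate 2 in every group of B, at 46.1 in nrp1-1 nrp2-2.

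Genes of the pathways around QQS were counted in 7 lists, of which 85 members were tested in A and 89 in B. In gcn5-7 arp6-1, 3 of the 85 rose and 0 fell relative to Col-0, by limma at an adjusted p below 0.05. Over all genes 1.69% rose and 0.377% fell. In arp6-1 0 members were called by limma, with 1 at an unadjusted p below 0.05, where 0.0164% of all genes were called and 1.82% reached the unadjusted level. In gcn5-7 of A 0 were called, with 2 at an unadjusted p below 0.05, where 0.142% and 8.52% of all genes did so.

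In B, gcn5-7 had 8 members that rose and 5 that fell of the 89, where 11.6% of all genes rose and 14.7% fell. The triple mutant had 1 that rose and 0 that fell, where 1.28% and 1.15% of all genes did. In nrp1-1 nrp2-2 0 were called by limma, with 3 at an unadjusted p below 0.05, where 0.39% of all genes were called and 5.66% reached the unadjusted level.

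Of the 17 starch synthesis genes, SS4, a starch synthase that helps to initiate granules, rose in gcn5-7 arp6-1. It averaged 48.6 ± 9.41 there, against 6.79 ± 5.63 in Col-0 (log2 fold change 2.87 ± 0.62, adjusted p = 0.043, and 1.72, adjusted p = 0.0392, once gene length was corrected). The groups did not overlap. SS4 was not called with libraries rescaled to equal sums, nor with only the groups compared in the fit, where 0 genes were called. In gcn5-7 of B, where QQS was not called, PGI1, the plastid phosphoglucose isomerase, fell to 39.2 ± 9.64, against 73.0 ± 10.02 in Col-0 (-0.90 ± 0.20, adjusted p = 0.00431). The debranching enzyme ISA1 fell by 0.63 (adjusted p = 0.00715) and APL1, a large subunit of ADP-glucose pyrophosphorylase, fell by 0.88 (adjusted p = 0.0234). After the gene-length correction 5 of the 17 fell there. With libraries rescaled to equal sums 0 did, where the median fold change of all genes moved from 0.06 to 0.41. The median fold change of the list was -0.08 in gcn5-7 of B and 0.76 in gcn5-7 arp6-1, beside 0.06 and 0.18 over all genes. Once gene length was corrected it was -0.41 in gcn5-7 of B and 0.15 in gcn5-7 arp6-1, beside 0.03 and 0.00 over all genes.

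Of 21 starch breakdown genes tested in gcn5-7 of B, 1 rose and 2 fell, where 11.6% of all genes rose and 14.7% fell. LSF2, a glucan phosphatase, fell to 12.0 ± 3.53, against 32.0 ± 8.88 in Col-0 (-1.33 ± 0.27, adjusted p = 0.00209). The alpha-amylase gene AMY2 fell by 0.83 (adjusted p = 0.00263), and AMY1, another alpha-amylase gene, rose by 1.12 (adjusted p = 0.0136). In gcn5-7 arp6-1 0 of 22 were called by limma, with 5 at an unadjusted p below 0.05, a level that 24.4% of all genes reached. With gene length corrected 1 of the 22 rose, the beta-amylase gene BAM6 (1.94, adjusted p = 0.0346, and 2.32, adjusted p = 0.0566, before it). Of the 6 subunits of SnRK1, the energy-sensing kinase, 0 were called in gcn5-7 of B, with 1 at an unadjusted p below 0.05, a level that 40.4% of all genes reached. Of 9 NF-YC genes tested in B, NF-YC11 (0.64, adjusted p = 0.0216) and NF-YC2 (0.88, adjusted p = 0.0476) rose in gcn5-7, where 11.6% of all genes rose. NF-YC2 averaged 26.3 ± 8.89 in gcn5-7, against 14.3 ± 6.71 in Col-0 of B, and was listed at 0 in all 11 libraries of A. Whether both tables were counted with the same annotation is not known, so this 0 need not be an absence of transcript.

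DNA methylation and demethylation genes are long, with medians of 3094.5 and 4437.5 bases of exon. In gcn5-7 of B, 3 of 21 methylation genes rose, where 11.6% of all genes rose. They were NRPD2 (0.98, adjusted p = 0.0258) and NRPE1 (0.69, adjusted p = 0.0384), subunits of the plant-specific RNA polymerases of RNA-directed methylation, and the histone methyltransferase gene KYP (0.63, adjusted p = 0.0372). The gene-length correction left 0 that rose and 1 that fell, with KYP at 0.41 (adjusted p = 0.0515). Among demethylation genes, the DNA glycosylase gene DME rose to 8.06 ± 2.36 in gcn5-7, against 3.03 ± 2.46 in Col-0 (1.35, adjusted p = 0.0408), and the histone demethylase gene IBM1 rose by 0.92 (adjusted p = 0.0458). DME also rose in gcn5-7 arp6-1 (2.05, adjusted p = 0.025), as did the glycosylase gene DML2 (1.33, adjusted p = 0.0403). After the correction DME stood at 0.36 (adjusted p = 0.398) and DML2 at -0.04 (adjusted p = 0.961) in gcn5-7 arp6-1. In gcn5-7 of B, DME then stood at 0.31 (adjusted p = 0.178) and IBM1 at 0.18 (adjusted p = 0.305). IDM2, a factor of active demethylation, was called in gcn5-7 of B only after the correction (0.69, adjusted p = 0.0202, and 0.53, adjusted p = 0.0589, before it).

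Of the other loci known to be silenced by methylation or imprinted, 7 were tested in A. In gcn5-7 arp6-1 their median log2 fold change against Col-0 was -0.94, beside 0.18 over all genes. By limma 0 of the 7 were called, with 4 lower at an unadjusted p below 0.05. Of all genes, 24.4% reached that level in either direction. After the gene-length correction the median was -0.96, beside 0.00 over all genes, and PAI1, a gene of tryptophan synthesis, fell by 2.00 (adjusted p = 0.0482, and a fold change of -1.30 with adjusted p = 0.0864 before the correction). PAI1 was named after its values were seen, and reads of its near-identical copies may have been split between them. In B 8 of these loci were tested. Against Col-0, 1 was called, MRD1 in the triple mutant, where 1.28% of all genes rose. In gcn5-7 of B 0 were called from the deposited values, where 11.6% of all genes rose and 14.7% fell. HISN6A, a gene of histidine synthesis, fell in gcn5-7 of B only once gene length was corrected (-0.58, adjusted p = 0.0299, and -0.29, adjusted p = 0.121, before). Whether PAI1 and HISN6A are methylated or silenced in the wild type used here was not measured.

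MRD1 (AT1G53480) rose in the triple mutant, where it had 15.0, 10.13, 2.80, 1.82 and 10.3 TMM-scaled TPM. It had 0.369, 6.46, 1.10, 0.179 and 1.16 in nrp1-1 nrp2-2, 0.325 to 1.47 in gcn5-7 and 0.097 to 0.547 in Col-0. The triple-mutant libraries all lay above the Col-0 libraries (log2 fold change 2.53 ± 0.46, adjusted p = 0.00327, and 2.58, adjusted p = 0.0013, once gene length was corrected). The triple mutant also stood above gcn5-7 (2.11, adjusted p = 0.0168), while its difference from nrp1-1 nrp2-2 was called only once gene length was corrected (1.72, adjusted p = 0.104, and 1.82, adjusted p = 0.0476). In A, MRD1 was at 0.049 or below in every library. QQS in the triple mutant stood below Col-0 on average and was not called.

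Some tissue markers moved in gcn5-7 of B. RBCS1A averaged 13197 ± 3948 in gcn5-7, against 29577 ± 8002 in Col-0 (-1.18, adjusted p = 0.0121), and LHCB1.3 fell by 1.22 (adjusted p = 0.0389). PYK10, a beta-glucosidase gene of roots, rose to 120 ± 51.4, against 48.0 ± 11.3 in Col-0 (1.25, adjusted p = 0.00691). The root hair genes EXPA7 and COBL9 did not rise and were too low for a test. They averaged 0 and 0.0066 in gcn5-7, against 0.016 and 0.0466 in Col-0. The part of the shifts of RBCS1A, LHCB1.3 and PYK10 in the gcn5-7 values of the starch genes was not tested.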

How the data were processed

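Per the submitters' processing notes, fastp 0.23.4, HISAT2 2.2.1 and the TAIR10 build were used by the authors. The sources used here give neither the counting tool, nor its use of strand, nor the annotation. The deposited values are a signal, TPM scaled by TMM, per the file headers. Reads were recovered as value times RefSeq exon length over a factor per library; 99.4 to 99.8% of low values lay within 0.05 of a whole number. Intervals on them cover counting error only.

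Here, limma 3.58.1 (R 4.3.3; trend, robust) was fitted to log2(value + 1) over all groups of a table, for genes with a mean of at least 1 (18322 in A, 19507 in B), with Benjamini-Hochberg adjustment and calls below 0.05. A fold change on this scale understates the change of low genes. Exact permutation tests were two-sided. Shares of all genes called come from the limma fit to the deposited values. Counts of list members in alternative fits therefore have no such share beside them and describe those members only. The gene-length correction removed, per library, the lowess trend (span 0.3) of each gene's deviation from its mean on log2 exon length. The fit was tested on simulated data.

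Replicate numbers were examined as pairs. After group means were removed, every same-numbered pair correlated above 0.1 in B for nrp1-1 nrp2-2 with Col-0 (0.591 to 0.772), and for the triple mutant with Col-0 (0.276 to 0.757), gcn5-7 (0.116 to 0.538) and nrp1-1 nrp2-2 (0.375 to 0.798), but not for gcn5-7 with Col-0 (lowest 0.0185). In A this held for arp6-1 with gcn5-7 (0.686 to 0.796, 3 pairs). It also held, on 2 pairs each, for Col-0 with arp6-1 (0.401 to 0.791) and with gcn5-7 (0.573 to 0.859). It did not hold for gcn5-7 arp6-1 with any other group (lowest -0.0334).

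The gene, the lists and the named genes were chosen with earlier results of these data known. Named are the 5 most and least alike genes, tested genes within 100 kb, NF-YC4, and up to 3 called members per list with the smallest adjusted p in each comparison with Col-0 of B; the list counts in A, and DME, DML2, SS4, PAI1, HISN6A, BAM6 and IDM2, were added after seeing the data. Of 114 list genes, 112 names matched the annotation.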

Additional observations from a re-analysis of the deposited data

Results flagged for a closer look

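In groups of 5 libraries, a value was picked out where its gap to the nearest other library exceeded 0.71 of the group's range. Chance does so in about 1 in 20 groups when values are normally distributed. Over 36 genes, 12 of 143 groups of B had such a library. The values were not on a log scale and the genes share libraries, so 12 of 143 is not comparable with 1 in 20.

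QQS in nrp1-1 nrp2-2 was at 12.322 in replicate 1, with the next library at 6.895. NF-YC4 was picked out in all 4 genotypes, each time for replicate 2, at 25.14 in the triple mutant, 46.052 in nrp1-1 nrp2-2, 28.781 in gcn5-7 and 37.663 in Col-0. LHCB1.3 was at 33727.1 in the triple mutant and 63829.9 in nrp1-1 nrp2-2, again in replicate 2. AT2G35555 was at 5.922 in replicate 2 of the triple mutant, with the next at 1.865, and MRD1 at 6.456 in replicate 2 of nrp1-1 nrp2-2, with the next at 1.155. NF-YC11 was at 27.937 in replicate 3 of the triple mutant. GDU6 was at 0.142 in the triple mutant and 0.184 in nrp1-1 nrp2-2, where the other libraries of each were listed at 0.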

How the results depend on the processing

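In A, 68 of 87 alternative values of QQS moved by less than the spread between replicates. With a pseudocount of 0.1 the differences of gcn5-7 arp6-1 from Col-0 and from gcn5-7 were -4.57 and -4.29, and with one of 5 they were -2.13 and -1.88, with arp6-1 at -1.84 from Col-0. The gene-length correction gave -2.47 and -2.42, and 0.54 against arp6-1; with a replicate block as well these were -2.60, -2.42 and 0.54. limma-voom on recovered reads, chosen after seeing the data, gave -4.67 and -4.42. Leaving out 1 library at a time gave -4.39 to -2.74 for gcn5-7 arp6-1, -3.61 to -1.96 for arp6-1 and -1.10 to 0.55 for gcn5-7 against Col-0. Counts of called genes in A ranged from 0 to 7217 around 378 for gcn5-7 arp6-1 against Col-0, 0 to 1468 around 26 for gcn5-7 and 0 to 161 around 3 for arp6-1, and from 552 to 7445 around 2504 and 418 to 9117 around 2715 for gcn5-7 arp6-1 against gcn5-7 and arp6-1.

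In B no limma alternative called QQS. The fold change of gcn5-7 against Col-0 reversed to 0.22 with equal sums, 0.13 with the gene-length correction, with or without a replicate block, 0.10 without Col-0 replicate 2 and 0.15 without replicates 1 and 2 of every group. Leaving out 1 library gave -0.30 to 0.10. The exact permutation test called -0.43 and -0.87 against the parents of the triple mutant from the deposited values. After the gene-length correction it called neither, with an adjusted exact p of 0.0794 for both. With the replicate block the adjusted p was 0.0539 for the triple mutant against nrp1-1 nrp2-2, 0.225 against gcn5-7 and 0.191 against Col-0, so the pairing changed no limma call. The exact permutation tests ignored the pairs. Counts of called genes ranged from 2347 to 9714 around 5118 in gcn5-7, 11 to 534 around 76 in nrp1-1 nrp2-2, 326 to 2347 around 474 in the triple mutant, 139 to 5074 around 627 and 24 to 1430 around 139 against its parents, and 2 to 471 around 8 for the interaction. Equal sums moved the median of all genes by up to 0.681 in A and 0.353 in B. The causes of these changes were not tested. In B, 13 to 64 reads per library limit the precision of QQS.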
